A study of Drosophila melanogaster with 7 samples.

Results

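The eye imaginal discs described here carried sevS11, an allele known to make the receptor tyrosine kinase Sevenless active without its ligand, and were compared with wild-type discs on 2-colour arrays. The 3 sevS11 arrays were taken out of 7 in the study by their strain label, and the other 4 held sevd2, known as a loss-of-function allele of sevenless (sev). Of the genes named on the array, 5713 had a value on some sevS11 array, and the 4456 with a value in both sevS11 RNA extractions are described, whether or not they were measured in sevd2. Another 320 genes had a value in extraction 1 only and 937 in extraction 2 only, and these were not tested.

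Sevenless is displayed by several cells of each forming ommatidium, the unit of the compound eye, but in the wild type the R7 precursor is the cell that responds to the ligand Boss on the neighbouring R8 cell. The active receptor signals through Ras, Raf and MAP kinase. One output is transcription of phyl, whose product works with the ubiquitin ligase Sina to remove the repressor Tramtrack and so allows the R7 photoreceptor fate. A receptor that signals without its ligand is known to drive other cells, such as cone cell precursors, towards R7.

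All discs came from late larvae, of the third instar, staged with bromophenol blue, in a w1118 background. The mutant strains are given as sevS11;+;+, spelled SevS11 on 1 array, and sevd2;+;+. The reference, common to every array, was a pool of RNA from the isogenic wild-type strain w1118;+;+. The labels say nothing of the promoter that drives the activated receptor, of how many lines carried it or of how many discs were pooled. Extraction 1 of sevS11 was hybridised as a dye-swapped pair, with the mutant in Cy5 on array 1 and in Cy3 on array 2. Extraction 2 was hybridised once, with the mutant in Cy5 on array 3. The labels disagree about the reference: its tissue and source fields and the extraction protocol name eye discs, but the description names wing discs. The known retinal determination and wing disc genes give the measurements that bear on this. The means of all 8 tested genes of the retinal network (ey, toy, so, eya, dac, eyg, tsh and Optix) lay between -0.28 and 0.38 on the log2 scale, with a median of 0.04. None passed. Of the 8 genes, 2 lay above 0 in extraction 1 and 6 in extraction 2, and eya read -0.13, -0.17 and 0.73 on the arrays. Of 9 listed wing disc genes 3 were tested, bs (-0.11), ap (-0.08) and tup (-0.08), and they did not pass either (limma, adjusted p from 0.829 to 0.889). Of the others, zfh2 had a value on array 3 only (0.26), and the rest, such as vg and nub, had no sevS11 value.

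Values are log2 ratios, likely of sevS11 over the reference. A value of 1 means a doubling. This direction was itself taken from sev, so sev does not check the labels. Each gene was tested for a mean of 0 over the n = 2 extractions with limma. That test draws much of its estimate of spread from all genes together, here with 16 prior degrees of freedom against 1 from the gene's own extractions. A gene passed at a Benjamini-Hochberg adjusted p under 0.05 over all 4456 genes, and errors are the standard error (SE) of that fit. A ratio to a single pool leaves out the spread of the wild type. In whole discs, fewer cells of a type and less RNA per cell cannot be told apart.

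Both sevS11 extractions carried part of the same pattern, but they were not close repeats. Probe values were present for 5194, 5527 and 7009 probes on arrays 1, 2 and 3. Precision is limited by how few arrays there are. Across probes the dye-swapped arrays of extraction 1 correlated at r = 0.939, and array 3 correlated with them at 0.688 and 0.633. Array 3 also correlated with the 4 sevd2 arrays at 0.486 to 0.653, and arrays 1 and 2 did so at 0.157 to 0.426. Over the tested genes, extraction 1 and extraction 2 of sevS11 correlated at 0.444. Extraction 2 correlated with the sevd2 extractions at 0.461 and 0.411, so it was about as close to sevd2 as to extraction 1 of sevS11. All arrays share the reference pool, and arrays 1 and 3 also share the dye orientation, so these are descriptions of the libraries. Extraction 2 has no swapped partner, and across 3252 genes its values correlated at 0.282 with the dye effect of the extraction 1 pair. The extractions had the same sign in 2672 of the 4456 genes, or 60.0%, and the median absolute gap between them was 0.262. Where array values are printed, those of arrays 1 and 2 are the reading without extraction 2.

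In total 167 genes passed, or 3.75% of those tested: 74 were higher (1.66%) and 93 lower (2.09%) in sevS11. Without an adjustment for the number of genes, 666 had a p under 0.05 (limma). Each of the 167 had the same sign on all sevS11 arrays that measured it. Of them, 124 were measured on 3 arrays and 43 on 2. No absolute log2 ratio under 0.672 passed, and 64 genes passed with an absolute ratio of 1 or more, 26 higher and 38 lower. The passing genes include 57 that the annotation knows only by a CG number, to which no function is attached here.

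**Figure D1:**
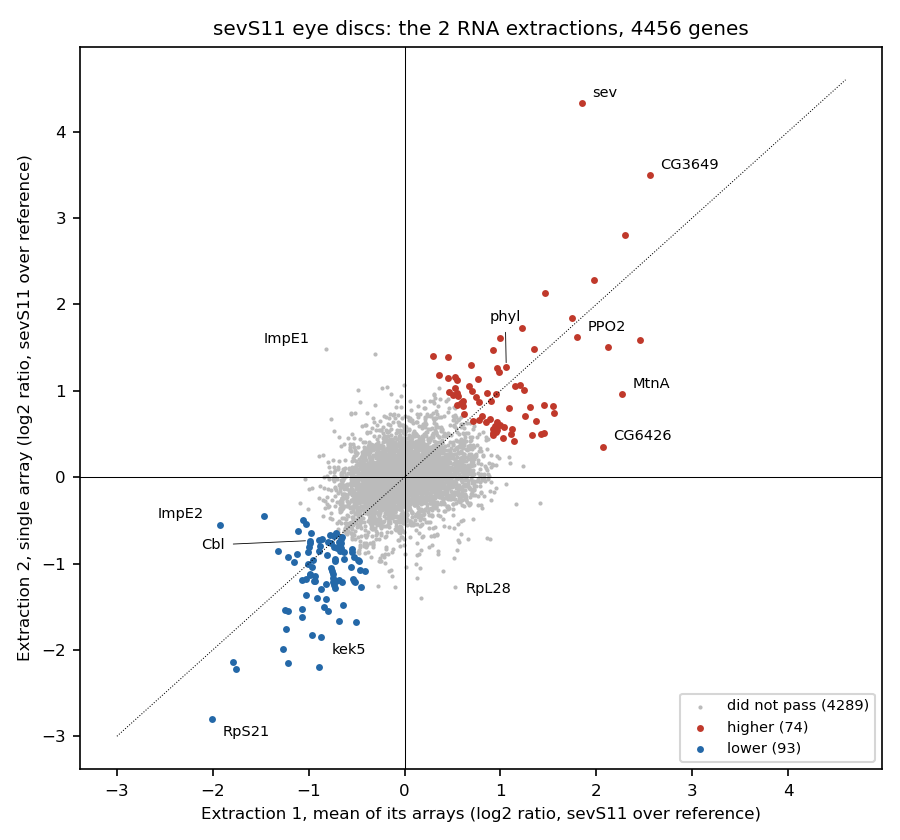
Each point is 1 of 4456 genes, with its log2 ratio in extraction 1 (x axis, mean of its arrays) and extraction 2 (y axis, single array); the dotted line marks equal values. The 74 higher genes lie in the upper right and the 93 lower genes in the lower left, while ImpE1 and RpL28 have opposite signs in the extractions.

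Within the Sevenless pathway the receptor transcript and phyl rose and the ubiquitin ligase gene Cbl fell, while the other tested genes of the pathway list did not pass. The sev transcript stood at 1.81 and 1.90 on the extraction 1 arrays and at 4.33 on the extraction 2 array. All 3 lay far above 0, and the gap between the extractions was the largest of all tested genes. Its mean was 3.09 ± 0.35 (limma, adjusted p = 3.59e-05). With the spread shared between both genotypes the sev call ended (limma, adjusted p = 0.0533), and so it did in a robust fit (limma, adjusted p = 0.399). In sevd2 the extraction values of sev were -0.32 and -0.41.

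Transcripts of phyl stood at 0.98, 1.14 and 1.28 on arrays 1, 2 and 3. These values lay close together and all above the sevd2 extractions at 0.27 and -0.02. Of the 3586 genes measured in every extraction, 44.6% likewise had no overlap between the sevS11 arrays and the sevd2 extractions (19.4% with sevS11 higher and 25.1% lower), so lack of overlap alone sets no gene apart. Relative to the reference the mean was 1.17 ± 0.18 (limma, adjusted p = 0.00112), and the difference from sevd2, 1.04 ± 0.17, did not pass (limma, adjusted p = 0.169). Cbl, whose product marks active receptor tyrosine kinases for removal, stood at -0.93, -1.05 and -0.73. Its sevd2 extractions lay near 0, at -0.06 and -0.05. The fall averaged -0.86 ± 0.18 (limma, adjusted p = 0.0109), and its difference from sevd2, -0.81 ± 0.15, did not pass (limma, adjusted p = 0.187).

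Altogether 14 of 26 listed genes for the pathway from Sevenless through Ras to MAP kinase were tested, and 4 more had a value in 1 extraction. The 3 that passed are 21.4% of those tested, beside 3.75% of all genes, but the list was drawn up with results of these data known. Its median was 0.06, beside -0.01 over all genes, and turned to -0.04 without array 3. The 11 members that did not pass include the adaptor gene dos at -0.42 ± 0.18, Mkp3, a phosphatase gene for MAP kinase, at -0.34 ± 0.18, and the ETS repressor gene aop, known as yan. For dos the arrays read -0.52, -0.41 and -0.37, and for Mkp3 -0.40, -0.38 and -0.30. Both were thus below 0 on every array by less than the size that could pass. The ligase gene sina and the 14-3-3 genes did not pass, with means of 0.17, 0.25 (14-3-3epsilon) and 0.01 (14-3-3zeta). The 14 tested genes did not include those of Ras, Raf or MAP kinase themselves. Dsor1, a kinase gene of the cascade, averaged -0.08, from -0.41 in extraction 1 and 0.25 in extraction 2.

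EGFR, the second receptor tyrosine kinase of the developing eye, feeds the same cascade. Of 13 listed ligand and feedback genes, 9 were tested. Besides Cbl, which is on both lists, none passed (11.1% in all, beside 3.75% of all genes), and the median was 0.15. Highest was sty, which encodes Sprouty, an inhibitor made in response to the pathway, with 0.50, 0.51 and 0.70 on the arrays. Its sevd2 extractions were 0.21 and -0.15. The mean of 0.60 ± 0.18 missed the threshold (limma, adjusted p = 0.0856). The secreted inhibitor gene aos read 0.09, 0.31 and 0.38, S (Star, needed to process the ligand Spitz) 0.13, 0.18 and 0.74, and the ligand gene spi 0.25, 0.28 and 0.24. Only spi was even across the arrays, but as an average of 2 unlike probes, at 0.02 and 0.47 on array 1. Array 2 had a value for the higher probe only, which read 0.47, 0.28 and 0.34. None of aos, S and spi passed.

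**Figure D2:**
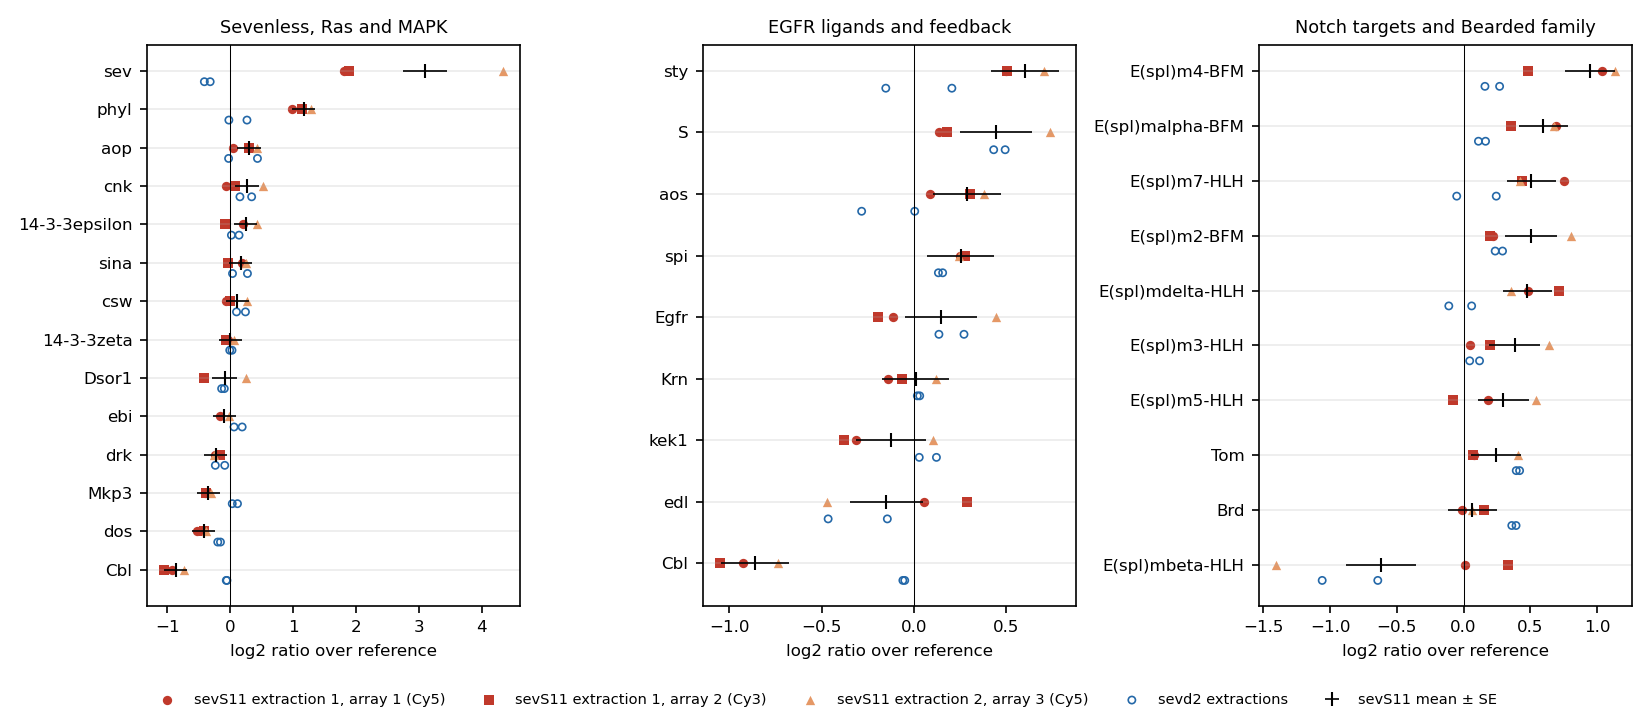
Log2 ratios over the reference (x axis) of every tested member of 3 signalling lists, with filled marks for the 3 sevS11 arrays, a bar for the sevS11 mean ± SE over 2 extractions and open circles for the sevd2 extractions. In the pathway panel sev and phyl stand above 0 and Cbl below it, while 9 of 10 Notch target and Bearded-family genes have a mean above 0.

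Among 12 tested genes for R7, R8 and other photoreceptor subtypes only phyl passed (8.33%, beside 3.75% of all genes), and the list median was 0.05. The homeobox gene ro, which acts in R2 and R5, read 0.61, 0.33 and 0.60, with a mean of 0.54 ± 0.18 (limma, adjusted p = 0.130). Of 6 tested neuronal genes none passed, and 4 had an unadjusted p under 0.05, beside 14.9% of all genes (limma). Of these 4, Appl and nrv3 lay above 0 and Rop and chp below it. The median of the 6 genes was 0.11, and -0.15 and 0.35 over the 5 that could be tested without array 1 and without array 2. Appl, a neuronal relative of the amyloid precursor gene, read 0.50, 0.52 and 0.81 against -0.32 and -0.57 in the sevd2 extractions. Its mean was 0.66 ± 0.18 (limma, adjusted p = 0.0597) and its difference from sevd2 1.10 ± 0.17 (limma, adjusted p = 0.168).

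Other neuronal genes went both ways. The pan-neuronal gene elav stood at 0.35 ± 0.18, from 0.26 and 0.45, and the sodium pump subunit gene nrv3 at 0.41 ± 0.18. Below the reference lay chp, the photoreceptor surface protein chaoptin, at -0.46 ± 0.18 and Rop, a vesicle fusion gene, at -0.52 ± 0.19. The cone and pigment cell list had 3 tested genes. The adhesion receptor genes rst and hbs stood at -0.51 ± 0.18 and 0.49 ± 0.19, on opposite sides of 0, and the cone cell factor gene ct at 0.04 ± 0.18.

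The Notch targets of the Enhancer of split complex and the Bearded family mark cells that receive the Notch signal in the furrow and among forming photoreceptors. Of 15 listed genes 10 were tested, 1 rose (10%, beside 1.66% of all genes) and none fell, and the median was 0.43. The gene that rose was E(spl)m4-BFM, a Bearded-family gene, with 1.04, 0.49 and 1.13 on the arrays. The low value was on the dye-swapped array of extraction 1. Its mean was 0.95 ± 0.19 (limma, adjusted p = 0.00603), and the sevd2 extractions were 0.27 and 0.16. Although 9 of the 10 means lay above 0, beside 2151 of all 4456 genes, only this one passed.

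Most other members shared the sign of that gene. E(spl)malpha-BFM read 0.69, 0.35 and 0.68, with a mean of 0.60 ± 0.18 (limma, adjusted p = 0.0867). The bHLH repressor genes E(spl)m7-HLH and E(spl)mdelta-HLH stood at 0.51 ± 0.18 and 0.48 ± 0.18. E(spl)mbeta-HLH was the exception at -0.62, with values above 0 in extraction 1 and far below 0 in extraction 2. The list median was 0.19 in extraction 1 and 0.48 in extraction 2, and 0.21 over the 9 members that could be tested without array 3. Among 9 tested furrow and proneural genes, which include hh, ptc, da, Delta and hry (hairy), none passed, and the median was 0.26. For this list the extraction medians were 0.13 and 0.31.

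The largest rises after sev were of genes outside the pathway list, and several had values above the reference in sevd2 as well. CG3649 was among those without any sevd2 value, with 2.56 on array 2 and 3.50 on array 3. It had no value on array 1, and on array 3 only sev was higher. Its mean was 3.03 ± 0.21 (limma, adjusted p = 3.44e-07). CG32207 followed with 2.50, 2.09 and 2.80, and its sevd2 extractions were 1.63 and 1.49. CG18294 had 2.11, 1.84 and 2.28 in sevS11 and 1.31 and 1.26 in sevd2. The differences between genotypes of 0.99 ± 0.20 and 0.84 ± 0.16 did not pass (limma, adjusted p = 0.219 and 0.195).

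Obp99a, of the odorant-binding protein family, read 2.26, 2.64 and 1.59, well above its sevd2 extractions at 0.41 and 0.21. This rise of 2.02 ± 0.21 (limma, adjusted p = 1.41e-05) was not shared by the other 4 tested members of its family, which lay between -0.18 and 0.26. GstE1, a glutathione S-transferase gene, read 2.34, 1.91 and 1.51, with a mean of 1.81 ± 0.20 (limma, adjusted p = 2.12e-05). Its sevd2 extractions also lay above the reference, at 1.26 and 0.99. MtnA, which encodes a metal-binding metallothionein, had 2.27 on array 1, no value on array 2 and 0.96 on array 3. The values in sevd2 had the other sign, at -0.49 and -0.28. The MtnA rise of 1.62 ± 0.24 (limma, adjusted p = 0.000745) ended with the spread shared between genotypes.

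Further rises were those of Nepl3, a gene of the neprilysin-like metallopeptidases (1.80 ± 0.20), CG17681 (1.80 ± 0.18), CG14715 (1.48 ± 0.19), scaf, which encodes the protease-like protein Scarface (1.31 ± 0.20), CG6426 (1.21 ± 0.28) and Acat1, an acetyl-CoA acetyltransferase gene (1.20 ± 0.19). In limma these 6 genes had an adjusted p of 1.15e-05 to 0.018. CG6426 differed most between extractions among them, with 2.07 on array 2 and 0.35 on array 3, and its call ended in the robust fit and with a shared spread. The sevd2 extractions were 1.07 and 1.01 for CG17681 and 0.77 and 0.89 for Acat1. With 1 sevd2 extraction measured, Nepl3 stood at 1.36, CG14715 at 0.97, scaf at -0.13 and CG6426 at -0.42. Syp, the gene of an RNA-binding protein active in the nervous system, read 1.44, 1.25 and 1.48. It was as high in sevd2, at 1.54 and 1.01, and the difference of 0.14 ± 0.21 did not pass (limma, adjusted p = 0.78). The 2 probes of Syp disagreed, at 0.59 and 2.20 over the arrays. With probes tested singly the lower probe was the one kept, and the Syp call ended at 0.71. The result of the higher probe alone is not given.

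**Figure D3:**
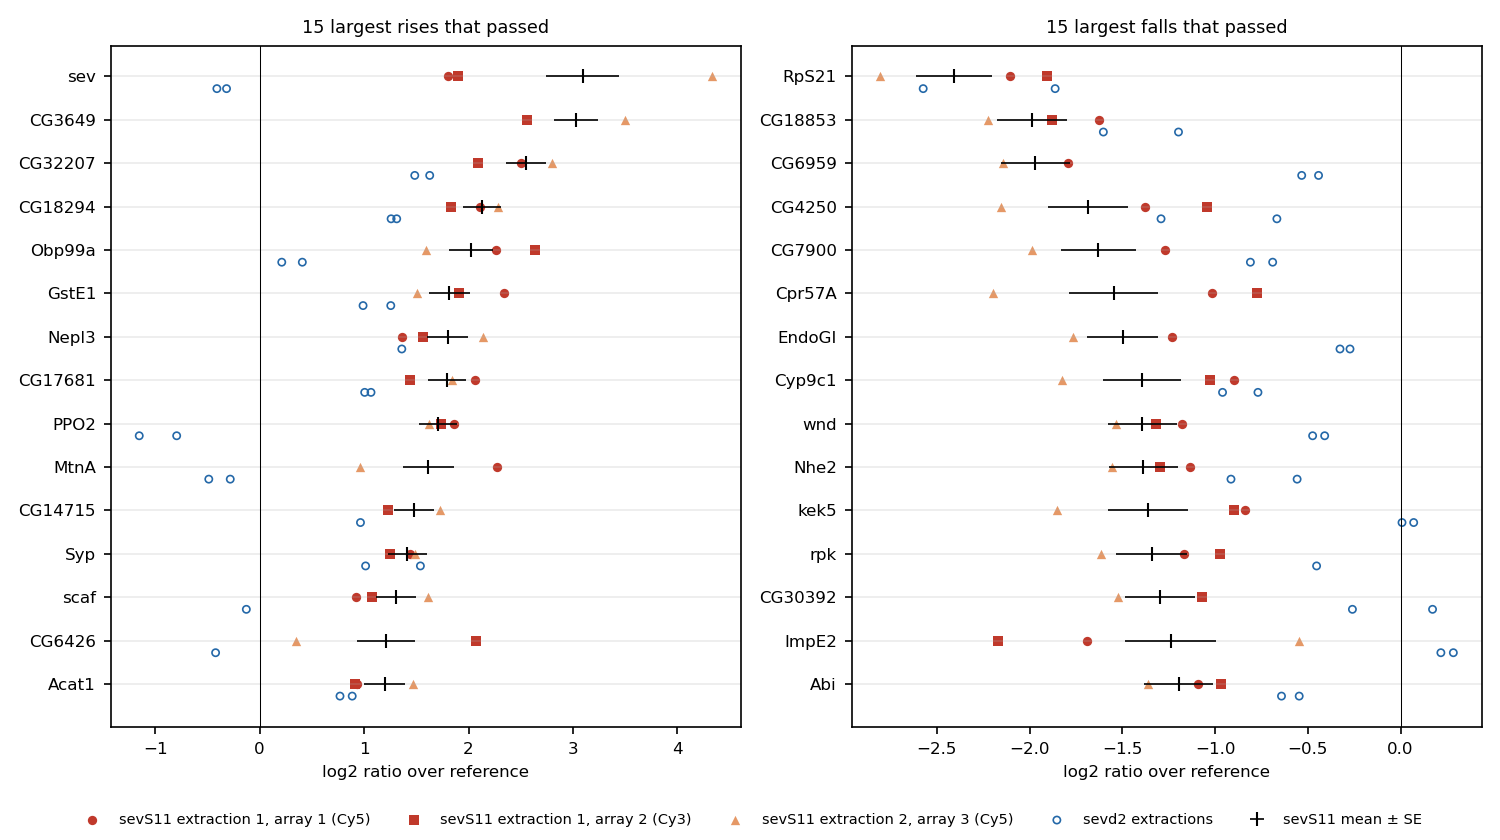
Log2 ratios over the reference (x axis) of the 15 largest rises and 15 largest falls that passed, with filled marks for sevS11 arrays, a bar for the sevS11 mean ± SE and open circles for sevd2 extractions. RpS21, CG18853 and CG32207 have sevd2 values of the same sign, while PPO2, MtnA, sev and ImpE2 have sevd2 values on the other side of 0.

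RpS21, a gene of the small ribosomal subunit, had the largest fall, with -2.10, -1.91 and -2.80 on the arrays. The sevd2 extractions were low as well, at -2.57 and -1.86. Its mean was -2.41 ± 0.21 (limma, adjusted p = 2.17e-06) and the difference between genotypes -0.19 ± 0.35 (limma, adjusted p = 0.830). CG18853 also had low values in both genotypes, with -1.63, -1.88 and -2.22 in sevS11 and -1.60 and -1.20 in sevd2. CG6959 was lower in sevS11 than in either sevd2 extraction, with -1.79 and -2.14 against -0.53 and -0.44. That difference of -1.48 ± 0.17 did not pass (limma, adjusted p = 0.145).

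Among the next falls, wnd, the gene of the MAP kinase kinase kinase Wallenda, read -1.18, -1.32 and -1.53, with sevd2 extractions at -0.47 and -0.41. Its mean was -1.39 ± 0.18 (limma, adjusted p = 0.000202). Nhe2, a sodium/proton exchanger gene, averaged -1.39 ± 0.19, Abi, the Abl interactor of the actin-regulating WAVE complex, -1.20 ± 0.19, and the cytochrome P450 gene Cyp9c1 -1.39 ± 0.21. CG4250 (-1.68 ± 0.21), CG7900 (-1.63 ± 0.20) and CG30392 (-1.30 ± 0.19) fell as well. In limma these 6 genes had an adjusted p of 0.000106 to 0.00105. The sevd2 extractions of Nhe2, Abi, Cyp9c1, CG4250 and CG7900 also lay below the reference, between -1.29 and -0.55. Those of CG30392 were -0.26 and 0.17.

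The kekkon-family gene kek5 read -0.84, -0.90 and -1.85, against 0.07 and 0.01 in sevd2. The difference of -1.40 ± 0.33 did not pass (limma, adjusted p = 0.243). Against the reference its mean was -1.36 ± 0.22 (limma, adjusted p = 0.00133). It was the only one of 11 tested adhesion and guidance genes to pass (9.09%, beside 3.75% of all genes). The kek5 call ended with the spread shared between genotypes (limma, adjusted p = 0.0533). The tetraspanin gene Tsp42Ea read -0.67, -0.73 and -0.82, with a mean of -0.76 ± 0.18 (limma, adjusted p = 0.023), a call that ended among genes measured on all 3 arrays (limma, adjusted p = 0.053). The other 9 tested tetraspanin genes did not pass, and the median of that family was -0.07.

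Dropping the requirement of a sevd2 value brought in 870 genes, of which 32 passed, 18 higher and 14 lower. That is 3.68%, close to the 3.76% of the 3586 genes measured in every extraction of both genotypes. Of the 32, 14 had a value in 1 sevd2 extraction and 18 in none, so for the latter nothing can be set beside sevS11. CG3649, Nepl3, CG14715, scaf and CG6426 were the largest rises among them. CG2641 followed with 1.16 on array 1 and 1.05 on array 3, CG15449 with 0.99 on array 2 and 1.21 on array 3, and CG9121 with 0.45 on array 2 and 1.39 on array 3. Each of these 3 genes lacked a value on 1 array of extraction 1, and the CG9121 call ended with a shared spread.

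Cpr57A, a gene of the cuticle protein family, had the largest fall of this set, with -1.02, -0.78 and -2.19 and no sevd2 value. Extraction 2 lay more than 1 log2 unit below extraction 1, and the call (-1.55 ± 0.24, limma, adjusted p = 0.00105) ended with a shared spread. The channel gene rpk (ripped pocket), of the degenerin family, read -1.17, -0.97 and -1.61, with a mean of -1.34 ± 0.19 (limma, adjusted p = 0.000517). Set8, which encodes the histone H4 lysine methyltransferase, had the same value of -1.01 on arrays 1 and 3. For dnt, a gene of the Ryk family of Wnt receptors, the values were -0.97, -1.26 and -0.62, with a mean of -0.87 ± 0.19 (limma, adjusted p = 0.0138). CG16721 (-1.09 ± 0.19), CG5535 (-0.96 ± 0.19), CG5618 (-0.93 ± 0.19) and the glutathione S-transferase gene GstD10 (-0.86 ± 0.21) were the other large falls of this set. The calls of dnt and of these 4 genes ended with the spread shared between genotypes. Cpr57A and these 4 genes had no sevd2 value, and dnt had a value in 1 sevd2 extraction. Their own spread therefore still came from sevS11 alone in that fit. What changed for them was the estimate taken from all genes, with 3.5 prior degrees of freedom against 16.

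A blood cell gene gave the only difference between sevS11 and sevd2 that passed. PPO2, a prophenoloxidase gene of crystal cells, read 1.86, 1.73 and 1.62, evenly on all arrays. In sevd2 its extractions were -1.15 and -0.79, on the other side of the reference. The mean over sevS11 was 1.71 ± 0.18 (limma, adjusted p = 1.96e-05). The difference from sevd2, 2.68 ± 0.18, was the only one of 3586 to pass (limma, adjusted p = 0.0471), a share of 0.0279%. At an unadjusted p under 0.05 there were 469 such differences.

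He, which encodes the hemocyte surface protein Hemese, read 1.44, 1.68 and 0.75 in sevS11 and -1.24 and -0.77 in sevd2. PPO1, the other crystal cell prophenoloxidase gene, read 1.30, 1.33 and 0.81, and -1.04 and -0.89 in sevd2. In both genes extraction 1 was higher than extraction 2, and the sevd2 values lay below the reference. Against the reference He rose by 1.15 ± 0.21 and PPO1 by 1.06 ± 0.19 (limma, adjusted p = 0.00284 and 0.00291), and the He call ended with the spread shared between genotypes (limma, adjusted p = 0.0624). Their differences from sevd2 of 2.16 ± 0.31 and 2.03 ± 0.20 did not pass (limma, adjusted p = 0.156 and 0.145).

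The hemocyte list had 12 tested members of 16, of which 3 passed (25.0%, beside 3.75% of all genes), and its median was 0.08, with 8 above 0. The plasmatocyte genes Hml (0.25), NimC1, eater and crq, the GATA factor gene srp and the matrix genes Col4a1 (0.33 ± 0.18) and SPARC (-0.33 ± 0.19) did not pass. Col4a1 read 0.50, 0.41 and 0.21 in sevS11 and -0.47 and -0.43 in sevd2, a difference that did not pass (limma, adjusted p = 0.195). The list medians of the extractions were 0.20 and 0.01, with 10 members above 0 in extraction 1 and 6 in extraction 2. The median was 0.27 over the 8 members that could be tested without array 3 and 0.25 over the 9 measured on all 3 arrays. Over the members with a sevd2 value in both extractions the sevd2 median was -0.62. The arrays give ratios only, so no summed level of these markers can be stated, and the part of attached blood cells in any other result was not tested. Of the other tissues that could adhere to a disc, the fat body had a single tested gene, Lsp2, at 0.03 ± 0.19, and 3 tracheal and peripodial genes did not pass (Ance -0.43 ± 0.19, drm -0.26 ± 0.20, odd -0.25 ± 0.21).

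Glial markers, which stand for cells that migrate into the eye disc, had 5 tested members with a median of -0.30 and no mean above 0. The extraction medians were -0.28 and 0.05, and 3 members lay above 0 in extraction 2. The glutamate transporter gene dmGlut fell, with -0.94 on array 1 and -1.20 on array 3, against 0.35 and 0.36 in sevd2. The mean was -1.07 ± 0.18 (limma, adjusted p = 0.00206). The defining glial gene repo read -0.24, -0.21 and -0.52 and did not pass, at -0.37 ± 0.18. The genes loco, Gli and nrv2 had values below 0 in extraction 1 and above 0 in extraction 2.

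Of 12 tested genes for cell death and stress kinases 3 fell (25.0%, beside 2.09% of all genes) and none rose. Dronc, the initiator caspase gene, read -1.19, -1.25 and -0.92, and its sevd2 extractions were -0.41 and -0.17. The fall was -1.07 ± 0.18 (limma, adjusted p = 0.00206). EndoGI, an inhibitor gene of endonuclease G, had -1.23 on array 1 and -1.76 on array 3, and wnd is described above. The death inducer gene grim (0.21 ± 0.18) and the JNK phosphatase gene puc (0.18 ± 0.22) did not pass, and puc had opposite signs in the extractions. The list median was -0.03, and -0.35 over the 7 members that could be tested without array 3.

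**Figure D4:**
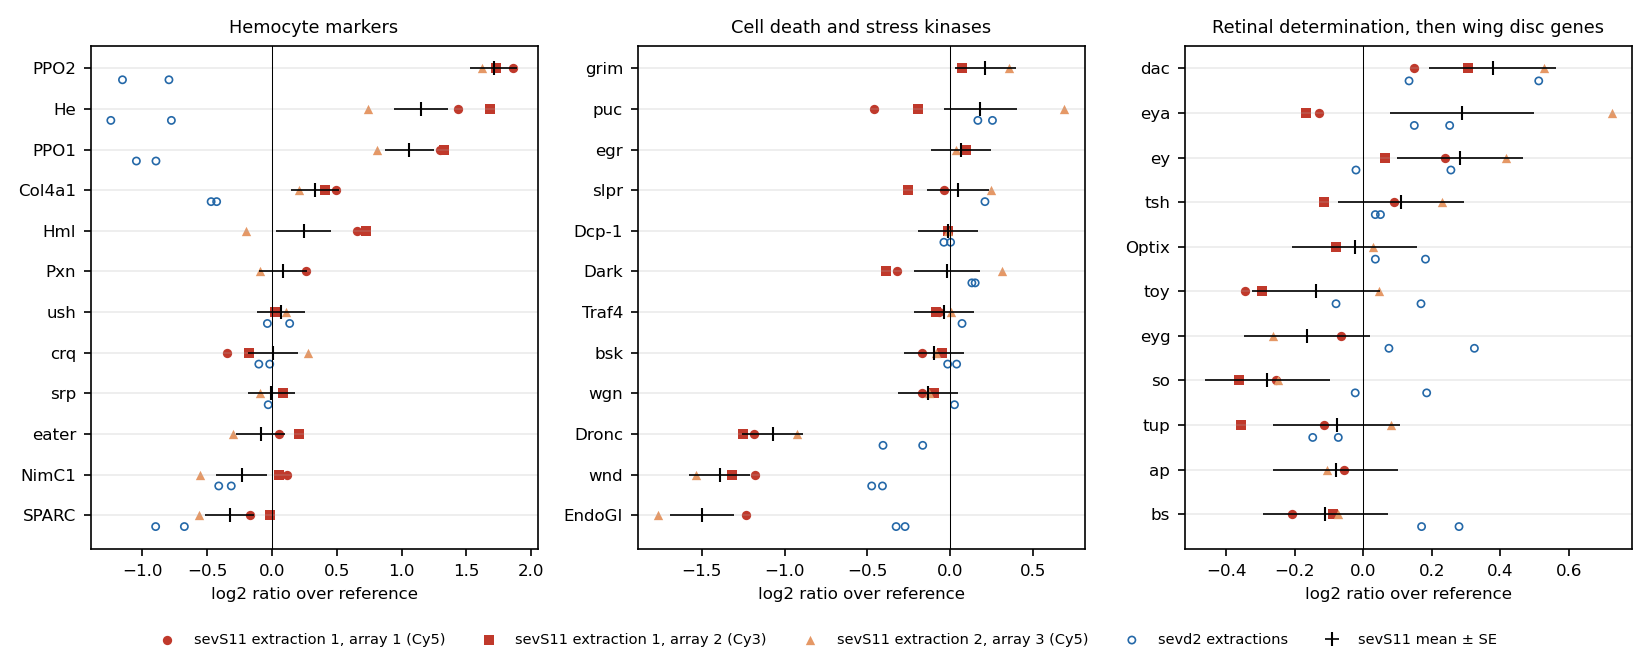
Log2 ratios over the reference (x axis) of the tested hemocyte, cell death and stress kinase, retinal determination and wing disc genes, drawn as filled marks for sevS11 arrays, a bar for the sevS11 mean ± SE and open circles for sevd2 extractions. PPO2, He and PPO1 lie above 0 in sevS11 and below 0 in sevd2, and Dronc, wnd and EndoGI lie below 0. The means of the retinal and wing genes lie between -0.28 and 0.38, with eya at 0.73 on array 3.

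Of 26 tested proteasome genes 3 fell (11.5%, beside 2.09% of all genes) and none rose. They were Rpn13, a ubiquitin receptor gene (-0.79, -0.65 and -0.94), Rpn3, a gene of the regulatory lid (-0.62, -0.70 and -0.82), and the core subunit gene Prosalpha1 (-0.50, -0.48 and -0.96). Their means were -0.83 ± 0.18, -0.74 ± 0.18 and -0.73 ± 0.19 (limma, adjusted p = 0.0138, 0.0279 and 0.041). Rpt5 at -0.68 ± 0.19 and Rpn5 at -0.57 ± 0.18 did not pass, and the family median was -0.05, which turned to 0.01 without array 3. Prosalpha1 also had sevd2 values below 0, at -0.72 and -0.41, whereas Rpn13 had values of 0.24 and 0.11. The Prosalpha1 call ended without array 1 (-0.72) and with the spread shared between genotypes, and those of Prosalpha1 and Rpn3 ended among genes measured on all 3 arrays.

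Ribosomal protein genes showed how the extractions parted. Of 28 tested genes of the cytosolic ribosome 24 lay above 0 in extraction 1 and 11 in extraction 2, with medians of 0.39 and -0.06. RpS21 fell and RpLP1, a gene of the ribosomal stalk, rose, with 1.16, 0.39 and 0.66 and a mean of 0.72 ± 0.18 (limma, adjusted p = 0.0323). The value on the dye-swapped array was the lowest, and the RpLP1 call ended without array 1 (0.53), after subtracting the dye effect of the pair (0.53) and among genes measured on all 3 arrays. Of 50 tested mitochondrial ribosomal protein genes 42 lay above 0 in the mean, beside 2151 of all 4456 genes. In extraction 1 and extraction 2, 42 and 29 of the 50 lay above 0, with medians of 0.39 and 0.02. One of them passed, mRpL13, with 0.97, 0.95 and 0.64 and a mean of 0.80 ± 0.19 (limma, adjusted p = 0.0196). It is 2.0% of the family, beside 3.75% of all genes, and its call ended among genes measured on all 3 arrays (limma, adjusted p = 0.0502).

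Ecdysone-response and heat shock genes differed between extractions in the other direction. The 8 tested ecdysone genes had medians of -0.44 in extraction 1 and 0.24 in extraction 2, and none lay above 0 in extraction 1. ImpE2, an ecdysone-inducible gene of imaginal discs, fell, with -1.69, -2.17 and -0.55, against 0.22 and 0.28 in sevd2. Its mean was -1.24 ± 0.25 (limma, adjusted p = 0.00626), and the call ended with a shared spread and among genes measured on all 3 arrays. No other tested ecdysone gene passed (12.5% of the list, beside 3.75% of all genes). ImpE1 read -0.67 and -0.97 in extraction 1 and 1.48 in extraction 2, the widest disagreement in sign on the list. The 8 tested heat shock and chaperone genes had medians of -0.31 and 0.12, and none passed. Larval timing was not measured apart from the staging in the labels, and its part in these values was not tested.

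Other gaps between the extractions fell on single genes. RpL28 read 0.40 and 0.66 in extraction 1 and -1.27 in extraction 2, Reck -0.31 on array 1 and 1.43 on array 3, and CG14075 1.42 on array 2 and -0.30 on array 3. Together with sev, ImpE1 and CG6426 these genes had the largest gaps of all those tested.

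Of 11 tested serpin genes, which encode protease inhibitors, 3 fell (27.3%, beside 2.09% of all genes) and none rose: Spn100A with -1.39, -1.55 and -0.45, Spn47C with -0.76, -0.69 and -0.97 and Spn77Ba with -0.61, -0.49 and -1.05. Spn47C was lower still in sevd2, at -1.91 and -1.41. The median of the serpins was -0.21, and all 3 calls ended with the spread shared between genotypes. Those of Spn100A and Spn77Ba also ended among genes measured on all 3 arrays, and that of Spn77Ba with probes tested singly (-0.65). For Spn77Ba that setting kept the probe with the smaller fall. Of 16 tested glutathione S-transferase genes GstE1 and GstZ2 (0.69, 0.72 and 1.00; mean 0.85 ± 0.18) rose and GstD10 fell. These 3 are 18.8% of the family, beside 3.75% of all genes, and the calls of GstZ2 and GstD10 ended with the shared spread. The family medians were 0.34 in extraction 1 and -0.16 in extraction 2. The chitin-binding gene obst-B, of the disc growth factor and chitin list, read -0.87, -0.81 and -1.50 and fell by 1.17 on the log2 scale (limma, adjusted p = 0.00199), while its sevd2 extractions were 0.13 and 0.11. Among 14 cell cycle genes none passed, with Cdk2 highest at 0.46 ± 0.18 and CycB lowest at -0.32 ± 0.18, and the 4 tested sex and dosage genes did not pass either.

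**Figure D5:**
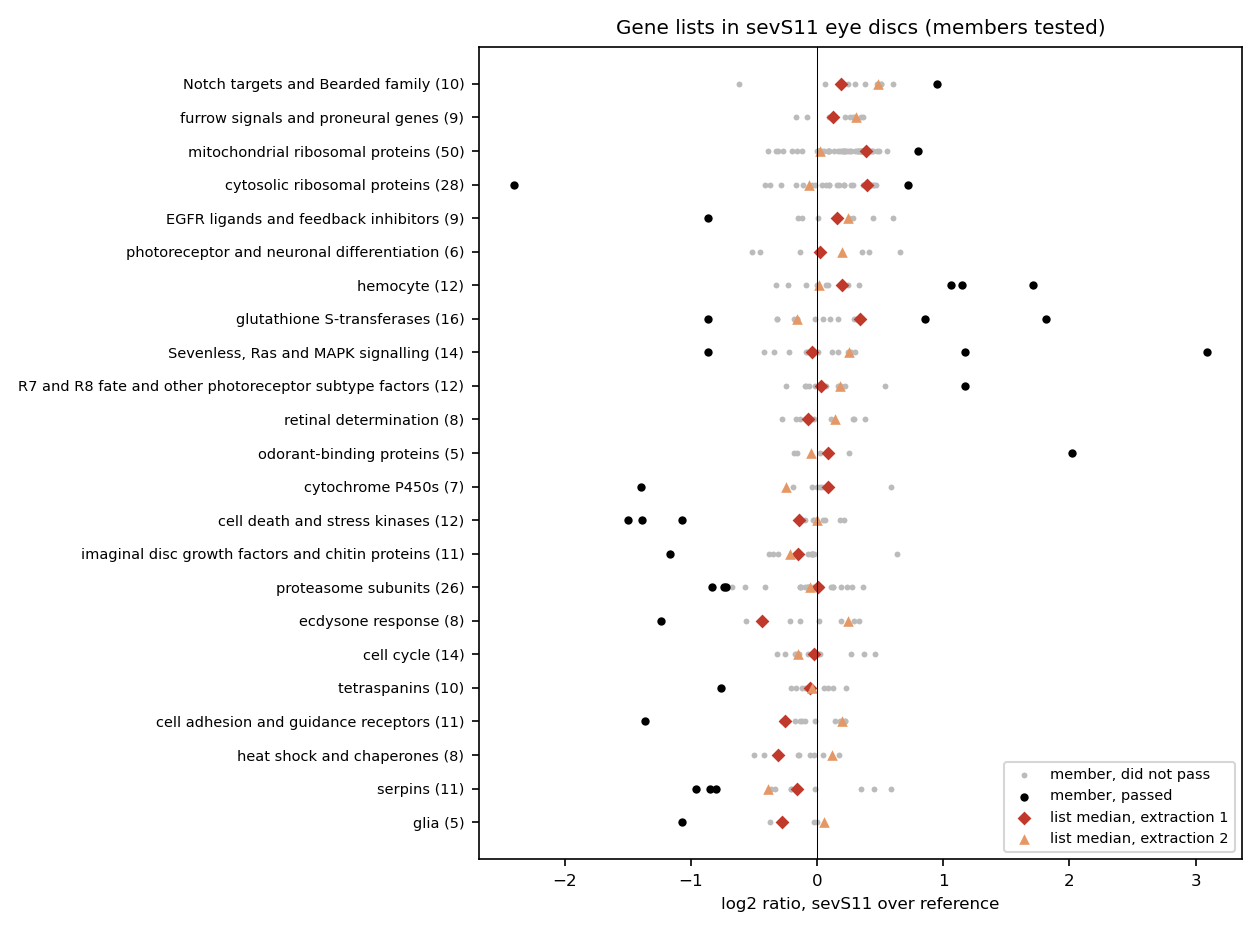
Log2 ratios over the reference (x axis) of the tested members of each gene list with 5 or more of them (number in brackets), as grey points where they did not pass and black points where they did, with diamonds for the extraction 1 median and triangles for the extraction 2 median. The medians of the ribosomal protein, ecdysone and heat shock lists have different signs or sizes in the extractions, while those of the Notch list are 0.19 and 0.48.

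By chromosome arm the share of genes passing ran from 2.55% of 667 on X to 4.48% of 870 on 3L, where 9 were higher and 30 lower. Of the passing genes, 4 pairs are direct neighbours in the annotation, and each pair moved in 1 direction. Neighbouring pairs among all tested genes were not counted, so whether passing genes lie together more often than others was not tested. Prosalpha1 and CG18853 fell, as did pst and Sec63. Ctr9 (-1.13 ± 0.18) and sturkopf (-1.06 ± 0.18) fell, and their annotated spans overlap, so their signals may not be separate. Prx6b and CG12896 rose, and so did Prx6c. Prx6b, a peroxiredoxin gene, read 1.54, 1.55 and 0.83, Prx6c 1.43, 1.48 and 0.83, and CG12896 1.26, 1.58 and 0.50. The sevd2 extractions of the 3 genes, in this order, were 1.41, 1.24 and 1.39 in extraction 1 and 0.12, 0.13 and 0.12 in extraction 2. Whether their probes tell these related genes apart is not known here. All 3 calls ended with the spread shared between genotypes, as did that of pst, and that of CG12896 also among genes measured on all 3 arrays.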

How the data were processed

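Per the labels' protocols, amplified RNA of dissected eye discs carried Cy3 or Cy5. The authors deposited 1 normalised value per probe and array, taken here as a log2 ratio; the submitters' processing notes name limma, without a version. Unknown, because not given in the sources used here, are background correction, normalisation, log base and direction. Base 2 follows limma's convention. Likely mutant over reference was taken from sev, and both arrays of a swapped pair already ran the same way.

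Of 16416 probes, 12533 were named by gene identifier, 120 by accession and 511 by an older symbol, through the platform annotation and the Release 6 plus ISO1 MT gene table. Another 101 listed several genes and 3151 were not listed; 1180 unnamed probes with values in both sevS11 extractions were not used. Probes were averaged per gene, and then arrays per extraction. The labels call the extractions biological replicates but do not name separate animals, so p-values bear on the spread between extractions. That spread comes mostly from all genes together (16 prior degrees of freedom against 1). For a gene with extractions far apart, such as sev, the SE is smaller than its own extractions alone would give. sevS11 was tested against 0 in R 4.3.3 with limma 3.58.1 (lmFit, eBayes), without a dye correction, and sevS11 minus sevd2 on 4 extraction means (prior degrees of freedom 3.3). The steps were tested on simulated data.

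The members, the 30 gene lists, the tests and the alternatives were chosen with earlier results of these data known, so no list or test is independent of them. Named were sev, the 15 largest rises and 15 largest falls, the 8 largest of each among passing genes lacking a sevd2 value, every passing list member, the 5 members of each list with the lowest p, the 6 largest gaps between extractions and every gene passing sevS11 minus sevd2. Other genes are named as chosen after their values were seen: the neighbouring pairs with Prx6c, and the genes of the other observations. Extraction numbers of the genotypes were not taken as pairs: the gaps between extractions 1 and 2 correlated at -0.074 across genes.

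Alternatives changed the dye correction, the source of the spread, centring, scaling, quantile normalisation, the genes and probes used, robust fitting, the threshold, the replicate block and each array in turn. With probes tested singly, each gene was read from the probe with values on the most sevS11 arrays. Ties went to the lowest probe number.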

Additional observations from a re-analysis of the deposited data

Results flagged for a closer look

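PPO2 was singled out because its ratio differed between the genotypes in a test of the difference itself. sevS11 stood 2.68 ± 0.18 above sevd2 on the log2 scale (limma, adjusted p = 0.0471), with 1.80 and 1.62 in the sevS11 extractions and -1.15 and -0.79 in the sevd2 extractions, so the direction held in both extractions of each. Groups of 2 extractions were too small to look for samples that stand apart.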

How the results depend on the processing

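None of the 57 named calls changed sign under any alternative. Without sevS11 replicate 3, and so without extraction 2, genes that had not passed did so with the other sign: puc (-0.33), ImpE1 (-0.82), RpL28 (0.53) and Reck (-0.31). Leaving out other single arrays gave up to 0.25 for puc, 0.40 for ImpE1, -0.44 for RpL28 at the lowest and 0.56 for Reck. Of those 57 named calls, 34 ended under no alternative that could be run for them and 18 ended with the spread shared with sevd2. Missing values left 9 to 12 alternatives per named call. Genes measured on 2 arrays, such as CG3649 and CG6959, could not meet the setting of genes on all 3 arrays. The 167 calls became 103 (40 higher, 63 lower) with the spread shared with sevd2, 93 of them among the 167. That fit had 3.5 prior degrees of freedom. A gene without values in both sevd2 extractions, such as CG9121, GstZ2, Psf2 or Lip4, had its own spread from sevS11 alone there too. The 167 calls became 274 (126 and 148) with arrays centred and 272 (117 and 155) with arrays scaled, with all 167 kept in each. Prior degrees of freedom rose from 16 to 773.9 and 169 in these fits. For genes on all 3 arrays 72 of 3252 passed (29 and 43), beside 124 of the 167 calls that were measured on 3 arrays. The values of these genes were the same in that fit. Its prior degrees of freedom were 9 instead of 16, and the adjustment ran over the 3252 genes. Leaving out single sevS11 arrays gave 120 to 1745 calls: 120 without replicate 1, 191 without replicate 2, and 1745 without replicate 3, where the spread came from sevd2 alone and the lone extraction was assumed to vary like it. The cause of the other changes was not tested. For sevS11 minus sevd2 the count of 1 was 11 (8 higher, 3 lower) with a replicate block, 2 with the dye effect of all swapped pairs subtracted and 26 (16 and 10) with quantile normalisation. Leaving out single arrays gave 0 to 1516: 0 without sevd2 replicate 4 (PPO2 could not be tested there; 358 at an unadjusted p under 0.05, limma), 2 without sevd2 replicate 2 and 1516 without sevS11 replicate 3. The extraction numbers are not known to pair samples. A list median counted as moved if it shifted by at least the standard deviation between the 2 extraction medians of its list. That held in 18 of the list and setting combinations and not in 258. The rule is loose where extractions disagree, so these counts do not measure stability. Without replicate 3 the retinal determination (0.04 to -0.07), Sevenless (0.06 to -0.04) and cell cycle (-0.06 to 0.02) medians changed sign and still counted as unmoved. The deposited ratios carry no signal over background, so the limit set by dim probes is unknown.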

Other observations

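The following passing genes lie outside the lists and were chosen after their values were seen, so they stand for no group. Xport-A, a chaperone gene for rhodopsin and TRP channels in photoreceptors, read 1.12, 1.36 and 1.01 in sevS11 and -0.31 and -0.01 in the sevd2 extractions, with a mean of 1.13 ± 0.18 (limma, adjusted p = 0.00154). The gene twit read 1.07, 0.86 and 1.27, with a mean of 1.12 ± 0.18 (limma, adjusted p = 0.00164). Neither call ended under any alternative run. Lsd-2, a perilipin gene of lipid droplets, read -1.07, -1.24 and -0.99 and averaged -1.07 ± 0.18 (limma, adjusted p = 0.00206), with sevd2 extractions at -0.48 and -0.42. Acox3, a peroxisomal acyl-CoA oxidase gene, and the ceramidase gene CDase fell as well, with means of -0.96 ± 0.18 and -0.93 ± 0.19. The calls of Lsd-2, Acox3 and CDase also ended under no alternative run.

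Other passing genes depended on the processing. The formin gene Fhos averaged 1.14 ± 0.18, but its probes stood at 0.23 and 2.09. With probes tested singly the lower probe was the one kept, and the call ended (0.22). The result of the higher probe alone is not given. The calls of unc-13, a gene of synaptic vesicle priming (0.73 ± 0.19), Psf2, of the GINS replication complex (0.81 ± 0.19), RPA3, of the single-strand binding complex (0.74 ± 0.19), the fatty acid synthase gene FASN1 (0.76 ± 0.19), the lipase gene Lip4 (0.73 ± 0.19) and the sterol-binding protein gene Npc2a (0.74 ± 0.19) ended with the spread shared between genotypes. The call of dUTPase (0.80 ± 0.19) ended among genes measured on all 3 arrays (limma, adjusted p = 0.054). Of the 14 tested cell cycle genes none passed, and their median was -0.06.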
